A study of Mus musculus with 34 samples.

Results

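H3K27ac, acetylation of lysine 27 on histone H3, was compared between a mouse embryonic stem cell line of the strain DBA/2J (D2, line D2 5-5) and a line of the congenic strain B6-13D2 (line QJ 6-1), in which a piece of chromosome 13 from DBA/2J sits on a C57BL/6J (B6) background. The lines therefore carry the same D2 alleles in that segment and different strain alleles over the rest of the genome, so the contrast compares the backgrounds with the segment held at D2. It rests on 6 of the 34 samples of the series, 3 libraries per line, and on all 248336 regions of the count table, of which 192158 passed the filter on low counts and were tested. The labels give the congenic genotype as B6.D2-(rs30079041-rs51756099)/Bakr. Lines of the other 2 genotypes, with 3 libraries each, entered the same fit and serve for comparison: C57BL/6J (line B6 5-1), and D2-13B6 (line XE 2-4, labelled D2.B6-(rs29224292-rs13469455)/Bakr), which carries a B6 piece of chromosome 13 on a D2 background. Cells of all 4 lines had been cultured with serum and LIF plus the MEK inhibitor PD0325901 and the GSK3 inhibitor CHIR99021, fixed with formaldehyde, cut with micrococcal nuclease and precipitated with the same antibody from Cell Signaling Technology. The libraries of a line are technical replicates of 1 line, so a test here compares these lines and does not measure how much lines of 1 genotype vary.

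H3K27ac is laid down mainly by the acetyltransferases CBP and p300, is removed by histone deacetylases, and marks promoters and enhancers in use. In embryonic stem cells the enhancers of pluripotency genes are bound by OCT4, SOX2, ESRRB and KLF factors and carry the mark. A sequence difference between strains can change it nearby on the same chromosome, and a difference in a diffusible regulator can change it elsewhere.

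Of the 192158 tested regions, 50226 (26.1%) were called different between the lines by edgeR's quasi-likelihood test at a Benjamini-Hochberg adjusted p under 0.05. Of these, 25114 were higher and 25112 lower in D2, each 13.1% of the regions tested. That split depends on the libraries used: without B6-13D2 replicate 2 it was 13885 higher and 21809 lower, and with the libraries of these 2 lines alone 28324 and 34185. DESeq2 called 28028 regions in all, 13305 higher and 14723 lower. The median absolute difference of called regions was 1.09 on the log2 scale, and 28439 regions (14.8%) were called with an absolute log2 difference of at least 1, of which 12946 were higher and 15493 lower in D2. A difference of at least 3 was called at 903 regions higher and 830 lower in D2. The genomic classes differed in direction under the main scaling, and that of promoters changed with the scaling, as given below. Of 19730 promoter regions, within 1 kb of an annotated transcript start, 43.6% were called, 7554 higher and 1054 lower. Of 68682 regions in introns of protein-coding genes, 22.3% were called, 5262 higher and 10063 lower.

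The reference sequences below stand for the ends of this range. The following pairs are the 300 bases at the center of the regions that were highest and lowest in D2, then of a region upstream of Pou5f1 that was lower and a region near Esrrb that was higher. They are GRCm38 plus-strand sequence, that is, the B6 allele, and capitals mark matches on either strand to 8 short motifs searched in every region.
Highest in D2, chr5:116708915-116709214: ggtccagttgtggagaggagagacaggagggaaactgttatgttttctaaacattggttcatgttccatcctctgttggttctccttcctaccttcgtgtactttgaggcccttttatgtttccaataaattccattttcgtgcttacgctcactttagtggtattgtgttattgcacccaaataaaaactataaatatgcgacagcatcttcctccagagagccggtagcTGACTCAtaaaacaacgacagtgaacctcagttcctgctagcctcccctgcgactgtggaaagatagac
Lowest in D2, chr4:52543250-52543549: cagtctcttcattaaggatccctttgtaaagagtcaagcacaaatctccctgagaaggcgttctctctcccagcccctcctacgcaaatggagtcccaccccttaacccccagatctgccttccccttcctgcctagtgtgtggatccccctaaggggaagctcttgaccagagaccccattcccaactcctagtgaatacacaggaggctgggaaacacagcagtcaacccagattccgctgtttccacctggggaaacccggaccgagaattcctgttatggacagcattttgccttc
Upstream of Pou5f1, chr17:35490182-35490481: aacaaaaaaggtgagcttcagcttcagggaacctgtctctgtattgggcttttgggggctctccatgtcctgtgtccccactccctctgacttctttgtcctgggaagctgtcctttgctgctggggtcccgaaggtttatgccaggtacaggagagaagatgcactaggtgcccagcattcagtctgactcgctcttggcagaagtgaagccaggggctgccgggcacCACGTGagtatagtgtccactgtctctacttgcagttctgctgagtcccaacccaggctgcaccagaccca
Near Esrrb, chr12:86336598-86336897: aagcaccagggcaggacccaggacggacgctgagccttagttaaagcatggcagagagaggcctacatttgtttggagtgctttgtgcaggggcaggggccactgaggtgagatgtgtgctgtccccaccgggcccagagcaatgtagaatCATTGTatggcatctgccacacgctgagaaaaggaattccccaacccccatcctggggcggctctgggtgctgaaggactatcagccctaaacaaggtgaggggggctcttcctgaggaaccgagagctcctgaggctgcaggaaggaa
The highest region held a match to the AP-1 motif TGACTCA, which 9.96% of all tested regions held in their central 300 bases. The lowest region held no match to the 8 motifs. The Pou5f1 region held the E box CACGTG, present in 5.44% of regions, and the Esrrb region the SOX motif CATTGT, present in 17%. A match is a string of letters in the B6 reference and not evidence of binding.

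Promoter sequences of 4 genes are shown as examples of CG content. Pdrg1 and Hunk were picked by name and not by rank, so they do not stand for all promoters at the extremes. These are RefSeq promoters of GRCm38.p6, from 250 bases before to 50 after the gene start, in the direction of transcription, with CG dinucleotides in capitals. Pdrg1 and Hunk were higher in D2, and Olfr94 and Trim12a were lower.
Pdrg1, chr2:153015334-153015633, minus strand: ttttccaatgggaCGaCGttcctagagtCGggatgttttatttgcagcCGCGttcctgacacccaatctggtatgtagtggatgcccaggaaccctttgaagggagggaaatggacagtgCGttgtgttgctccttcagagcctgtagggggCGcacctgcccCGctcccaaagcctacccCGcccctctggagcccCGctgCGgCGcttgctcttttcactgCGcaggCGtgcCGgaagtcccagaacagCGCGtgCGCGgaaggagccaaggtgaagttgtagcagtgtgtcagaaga
Hunk, chr16:90386147-90386446, plus strand: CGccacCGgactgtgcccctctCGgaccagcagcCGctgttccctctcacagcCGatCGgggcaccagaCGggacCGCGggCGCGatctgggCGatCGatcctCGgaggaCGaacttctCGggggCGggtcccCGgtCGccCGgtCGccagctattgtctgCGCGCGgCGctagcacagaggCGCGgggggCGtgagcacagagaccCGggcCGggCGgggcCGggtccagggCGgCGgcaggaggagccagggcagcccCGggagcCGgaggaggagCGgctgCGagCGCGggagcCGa
Olfr94, chr17:37197917-37198216, minus strand: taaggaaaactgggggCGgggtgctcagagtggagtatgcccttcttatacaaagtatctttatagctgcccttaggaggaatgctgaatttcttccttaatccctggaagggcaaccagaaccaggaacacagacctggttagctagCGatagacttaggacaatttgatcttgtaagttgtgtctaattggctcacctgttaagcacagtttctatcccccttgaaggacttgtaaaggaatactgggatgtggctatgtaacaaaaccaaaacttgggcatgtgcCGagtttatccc
Trim12a, chr7:104315446-104315745, minus strand: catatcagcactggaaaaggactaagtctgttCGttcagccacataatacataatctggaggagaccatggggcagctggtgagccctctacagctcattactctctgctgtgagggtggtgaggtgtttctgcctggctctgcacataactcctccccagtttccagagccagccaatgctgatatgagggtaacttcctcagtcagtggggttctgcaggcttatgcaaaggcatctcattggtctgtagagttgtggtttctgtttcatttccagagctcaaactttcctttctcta
The Pdrg1 window held 19 CG dinucleotides and the Hunk window 41, against 3 for Olfr94 and 1 for Trim12a. The central 300 bases of the measured regions held 7 at Pdrg1, 44 at Hunk, 31 at Olfr94 and 1 at Trim12a. Pdrg1 and Olfr94 thus change order between the RefSeq window and the measured region. The median over 32851 RefSeq promoters was 7. Of the 16 promoters with the largest differences, 14 matched a RefSeq entry and 8 had that window overlapping the measured region, of which the 6 higher in D2 had a median of 20 CG and the 2 lower in D2 a median of 2. The higher ones were not all CG-rich: Stab2, the furthest toward D2, held 4 and 1700093K21Rik held 1.

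The regions with the largest differences were close to empty in one line and well filled in the other. CPM here divides the reads of a region by the TMM-adjusted size of its library. The region furthest toward D2, chr5:116707407-116710721 inside the non-coding gene Gm43122 and 116 kb from the start of the neural splicing factor gene Srrm4, stood at 84.92, 73.36 and 82.96 CPM in the D2 libraries and at 0.67, 1.65 and 0.72 in the B6-13D2 libraries. The log2 difference was 6.25 ± 0.23 (SE, adjusted p = 4.51e-25). A region at chr17:73834612-73835824, 29.8 kb from the endocytic recycling gene Ehd3, measured 22.92, 22.38 and 21.71 CPM in D2 against 0.19, 0.46 and 0.45, a log2 difference of 5.88 ± 0.26 (SE). At chr7:36285067-36285938, 412 kb from Tshz3, the D2 libraries stood at 9.53, 9.61 and 10.28 CPM and no B6-13D2 library held more than 3 counts. Summed counts were 264 in D2 and 7 in B6-13D2, a ratio of 46 with an exact 95% counting interval from 22 to 116. No library of one line overlapped the range of the other at these regions.

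The other 3 regions of this end lay between genes. At chr17:22230777-22231082, 5.16 kb from the zinc finger gene Zfp994, summed counts were 189 in D2 and 4 in B6-13D2. The ratio was 57.7 (interval 22.2 to 214), and 66.7% of the region was repeat-masked. On chromosome 12, counts at 19087235-19087459 were 353 in D2 against 6, a ratio of 71.8 (interval 32.7 to 197). At 24036554-24036710 they were 232 against 5, a ratio of 56.6 (interval 23.9 to 176). Here and below, such ratios are scaled by library size, and their intervals cover counting error only.

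At the opposite end, the 6 regions held 0 to 2 reads over the 3 D2 libraries together, against 296 to 726 over those of B6-13D2. The intergenic region chr4:52542805-52543994 had 0 counts in every D2 library and 9.75, 10.37 and 10.75 CPM in the B6-13D2 libraries. The exact 95% counting interval for its ratio of B6-13D2 to D2 began at 73.8. The same region had 0 counts in the 3 libraries of D2-13B6, the reciprocal line with a D2 background, and 8.7, 9.87 and 9.14 CPM in the B6 libraries. In the non-coding gene 4930554G24Rik (chr11:14080184-14081655) the D2 libraries held 1 count in all and the B6-13D2 libraries 726, a ratio of 595 with an exact 95% counting interval from 106 to 23500. An intronic region of Skint4 (chr4:112159399-112161519), a member of an immunoglobulin-like gene family of skin and thymus, held 1 against 711 counts, a ratio of 583 (interval 104 to 23000).

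The other members of this group held 1 or 2 reads in D2. An intronic region of Tasp1 (chr2:140036763-140037980), which encodes a protease that cleaves MLL proteins, held 1 against 384 counts, a ratio of 315 (interval 56.1 to 12500). A region near Skint6 held 1 against 296 counts, a ratio of 243 (43.2 to 9610). A region 62.3 kb from the inflammasome sensor gene Nlrp1b held 2 against 514, a ratio of 211 (58 to 1740). All 12 regions kept their direction and call under every alternative that was run.

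**Figure D1:**
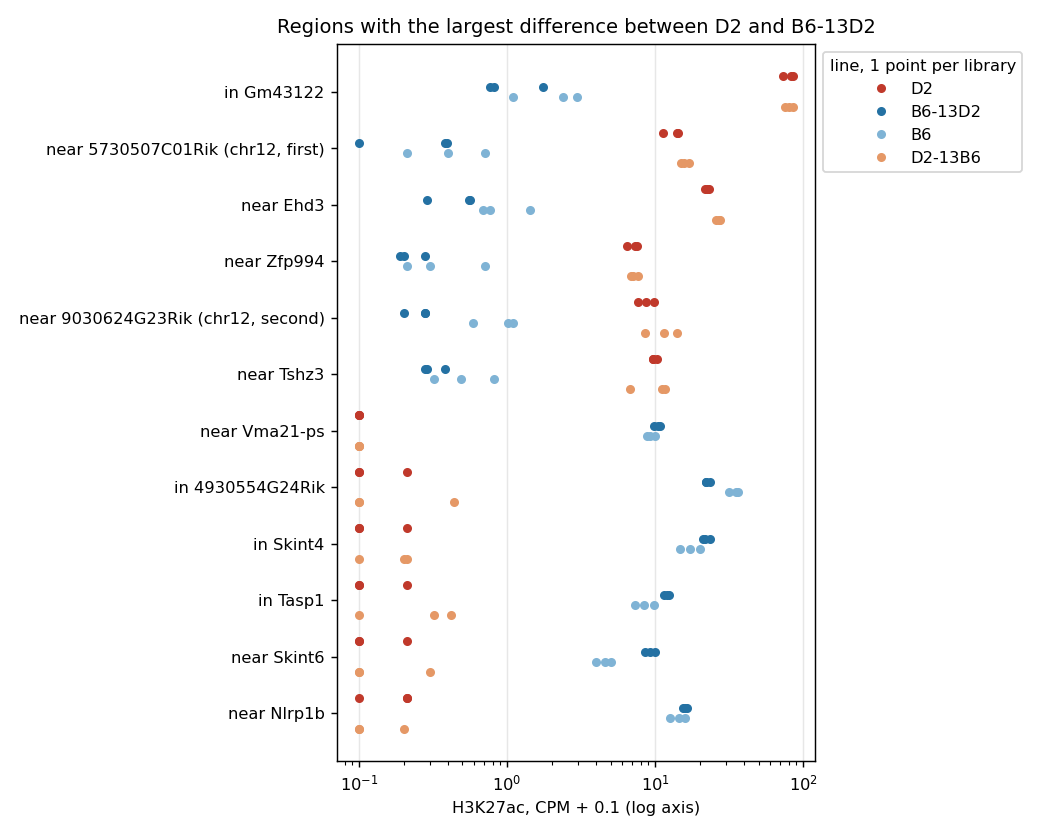
H3K27ac in CPM plus 0.1 (log axis) at the 12 regions with the largest differences between D2 and B6-13D2, with 1 point per library and the B6 and D2-13B6 lines for comparison. The libraries with a D2 background sit together and the libraries with a B6 background sit together, with no overlap between them at any of the 12 regions.

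Some called regions were near empty in either line, a group set by a cut-off of 3 counts. Such regions could pass the filter on low counts only through another line. In 965 regions lower in D2, no D2 library held more than 3 counts, and in 400 of these the D2-13B6 libraries were also at or under that floor. The reverse held for 921 regions higher in D2, where no B6-13D2 library exceeded 3 counts, 84 of them with B6 also at the floor. These groups differed in repeat content: the median repeat-masked share was 28.4% in the first and 82.4% in the second. More than 90% repeat were 102 regions of the first and 419 of the second, beside 7959 of all 192158 tested regions. The build named in the submitters' processing notes is mm10, which is the B6 genome, and whether D2 reads or reads from repeats aligned less often was not tested.

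Among promoters, the largest difference toward D2 was at Stab2, which encodes a scavenger receptor for hyaluronan. Its promoter region (chr10:87007764-87008267) measured 7.39, 6.67 and 8.34 CPM in D2 and 0.67, 0.18 and 0.27 in B6-13D2, a log2 difference of 4.3 ± 0.34 (SE, adjusted p = 4.7e-14). Pdrg1, a gene regulated by p53 and DNA damage, was high in absolute terms, with 85.14, 81.73 and 91.87 CPM in D2 against 7.17, 6.43 and 6.32, a log2 difference of 3.69 ± 0.15 (SE). Hunk, a protein kinase gene, stood at 43.27, 38.43 and 46.96 CPM in D2 against 3.44, 3.4 and 4.24. Pdrg1 was 12.9-fold and Hunk 11.4-fold higher in D2, with no overlap of libraries at any of the 3.

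The other promoters of this group were 1700093K21Rik (log2 difference 3.68), Fcho1, a starter of clathrin-mediated endocytosis (3.38), Adam23, a cell adhesion gene of neurons (3.22), Slfn8 of the Schlafen family (3.08) and Ano8, which encodes an anoctamin (3.03). Adam23 stood at 30.2, 26.23 and 28.34 CPM in D2 against 3.34, 2.94 and 2.71. Slfn8 belongs to a family of close copies, so its reads may be split among them.

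The promoters lower in D2 were equally far apart. Nod1, a sensor of bacterial peptidoglycan, measured 4.61, 6.56 and 5.03 CPM in D2 and 100.9, 93.82 and 99.78 in B6-13D2, a log2 difference of -4.15 ± 0.16 (SE, adjusted p = 5.37e-24). Aim2, a sensor of cytosolic DNA, measured 2.25, 2.94 and 2.63 against 28.28, 27.17 and 27.99, a log2 difference of -3.4. Trim12a, an antiviral TRIM gene with close copies, differed by -3.74, with 3.53, 3.84 and 3.2 CPM in D2 against 47.49, 48.1 and 46.42. Nrros, which encodes a protein that holds latent TGF-beta, differed by -3.84.

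The region at Olfr94, an olfactory receptor gene, also overlapped the ubiquitin-like gene Ubd and stood at 3, 4.07 and 4 CPM in D2 against 95.26, 89.04 and 98.25, a log2 difference of -4.65. The X-linked ubiquitin ligase gene Mid1 differed by -3.89, the synaptic gene Rims1 by -3.65 and the predicted gene Gm14412 by -3.44. A region was assigned to a gene by any annotated transcript start, and for Slfn8, Nod1, Mid1, Nrros and Rims1 the RefSeq start lay 4.42, 6.07, 295.13, 17.42 and 373.15 kb from the region, so these are internal or alternative starts. All 16 promoters kept their call and direction under every alternative.

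**Figure D2:**
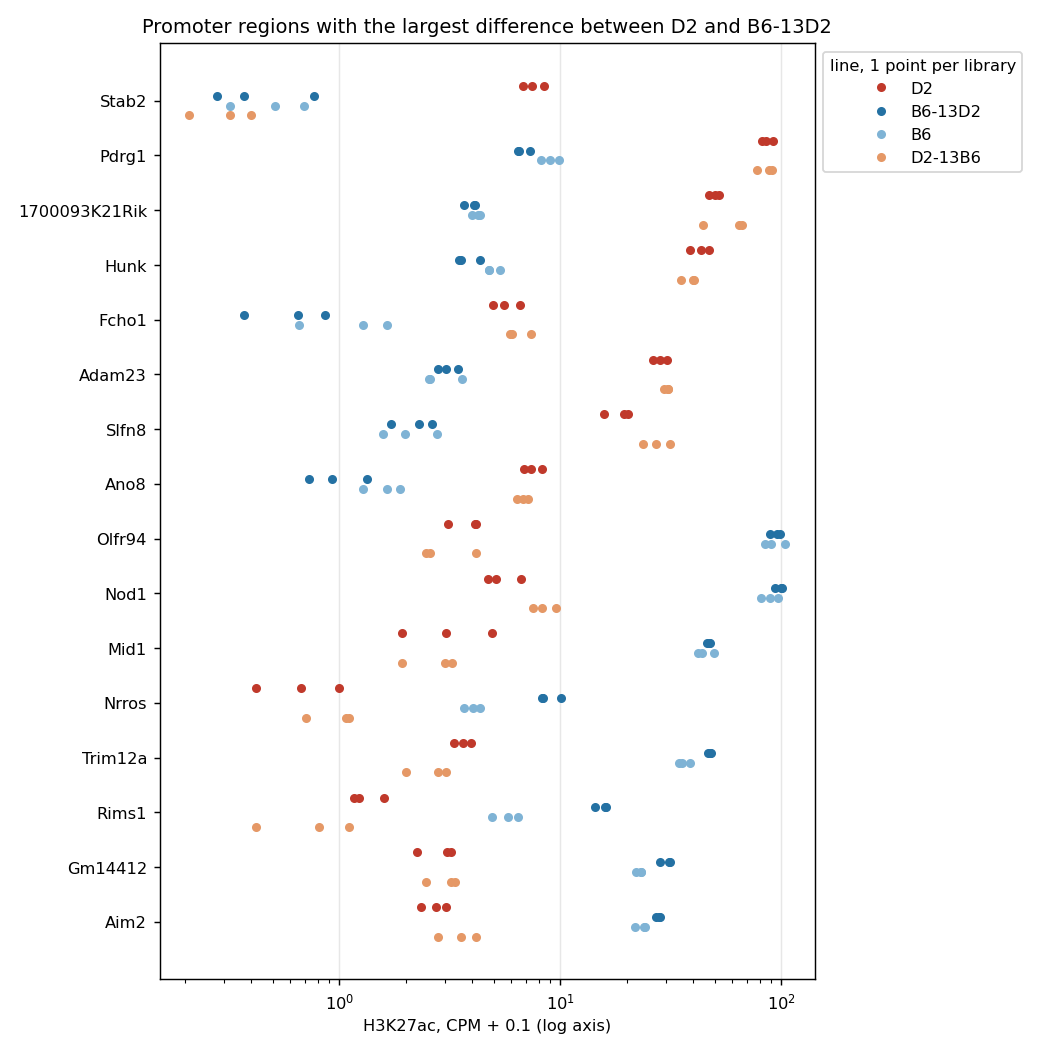
H3K27ac in CPM plus 0.1 (log axis) at the 8 promoter regions furthest toward D2 and the 8 furthest toward B6-13D2, with 1 point per library. Stab2 stands out because the D2-13B6 libraries sit with the B6 libraries there, at a mean of 0.212, while D2 is at 7.47.

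The rise at promoters was broad and shallow. Per gene, 16245 promoters were tested and 8131 (50.1%) called, 7485 higher (46.1%) and 646 lower (4%) in D2, and the median over all of them was 0.44 on the log2 scale. Promoter regions took 29.14% to 29.66% of all counts in the D2 libraries and 23.56% to 24.08% in the B6-13D2 libraries, so the lines did not overlap in this share. Among the other lines it was 25.18% to 25.64% in B6 and 28.73% to 29.18% in D2-13B6. In the series of separate lines, prepared with another H3K27ac antibody, it was 40.03% to 40.28% in D2 and 38.08% to 38.53% in B6.

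The direction of the promoter calls depended on how libraries were scaled. Without B6-13D2 replicate 2, that line is left as 1 summed sample. Counts of calls without it, in the gene lists below too, therefore cannot be read as the effect of 1 library. The median over promoter regions was 0.32 without it, against 0.4 with all libraries. When the libraries were scaled within deciles of GC content, 2843 promoter regions were higher and 1516 lower in D2, and when promoters and other regions were scaled separately, 2248 were higher and 2819 lower. Both scalings were chosen after the values had been seen, and the second removes any common shift of promoters by its construction.

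GC content moved with the difference. Outside promoters, the median log2 difference went from -0.37 in the lowest decile of GC content to 0.44 in the highest, and called regions were higher in D2 in 16.6% of cases in the lowest decile and 83.4% in the highest. In the reciprocal contrast on the B6 segment, D2-13B6 minus B6, which uses no library of this one, the same deciles had medians of -0.05 and 0.04. Among promoters both contrasts climbed with GC, from -0.22 to 0.63 here and from -0.02 to 0.5 there. In CG dinucleotides per central 300 bases, promoter regions higher in D2 had a median of 26, those lower a median of 5 and those not called a median of 11. Whether this trend came from library preparation or from the cells was not tested.

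**Figure D3:**
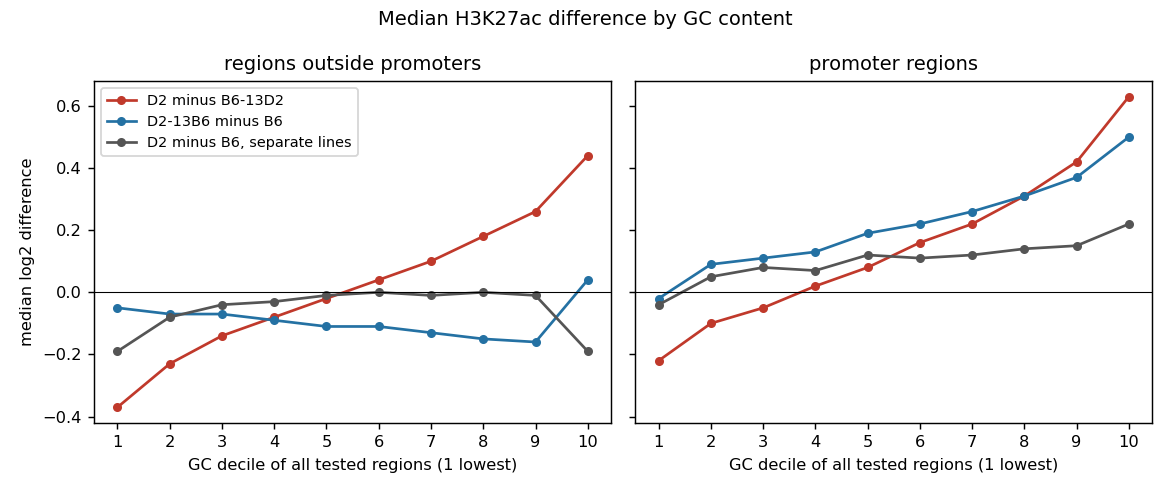
Median log2 difference of H3K27ac (vertical axis) in deciles of GC content (horizontal axis) for regions outside promoters (left) and promoter regions (right), in 3 comparisons. Outside promoters the line for D2 minus B6-13D2 climbs from -0.37 to 0.44, while the line for D2-13B6 minus B6 stays between -0.16 and 0.04.

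Motif content also differed between the directions. Among regions outside promoters, the POU octamer ATGCAAAT was found in 4.44% of the 24058 lower in D2, 2.4% of the 17560 higher and 3.23% of all. The ESRRB motif AAGGTCA was found in 12.3% of the lower, 7.32% of the higher and 8.9% of all, and the SOX motif CATTGT in 21.9%, 14.2% and 18%. A CTCF-like string, CCGCGNGGN, went the other way, with 0.395% of the lower, 1.22% of the higher and 0.611% of all. The other 4 motifs were also searched. KLF, GGGTGTGG, was in 6.22% of the lower and 5.58% of the higher against 6.2% of all, AP-1 in 8.76% and 7.5% against 10.6%, the E box in 4.72% and 5.64% against 5.3%, and the TFCP2L1 string CCGGTT in 3.66% and 4.68% against 4.03%. These shares describe letters in 300 bases of the reference, and the motifs differ in GC content as the regions do.

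Genes of naive pluripotency, the state kept by the inhibitors in the medium, were split in direction at their promoters. Every list below is to be read against all promoters, of which 46.1% were higher and 4% lower with a median of 0.44. Of 30 with a tested promoter, 9 were higher in D2, 6 were lower and 15 were not called, with a median of 0.14. With GC-decile scaling the counts were 5 higher and 6 lower, with promoters scaled separately 2 and 14, and without B6-13D2 replicate 2 they were 3 and 4. Without D2 replicate 2 they were 8 and 2. Higher genes included Socs3, the feedback inhibitor of LIF signaling, at 30.09, 27.58 and 34.05 CPM in D2 against 12.8, 12.94 and 15.62, a log2 difference of 1.13 ± 0.14 (SE). Gbx2, a LIF-responsive transcription factor gene, stood at 13.92, 11.42 and 13.14 against 4.59, 5.14 and 5.06, a difference of 1.35. The chromatin gene Utf1 differed by 0.68, a call that was lost with promoters scaled separately (adjusted p = 0.0889).

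Lower genes of this list included Nr5a2, a nuclear receptor that activates Pou5f1, at 63.72, 50.3 and 62.39 CPM in D2 against 93.83, 87.39 and 90.3, a difference of -0.65 ± 0.13 (SE) that was not called without D2 replicate 2 (adjusted p = 0.0531). Dppa3, a maternal-effect gene expressed in naive cells, differed by -0.81 and the RNA-binding protein gene Lin28a by -0.62. Among the core genes, Sox2 was called higher, by 0.35 (adjusted p = 0.0266), a call lost under both added scalings, where the value turned negative (-0.17 with GC-decile and -0.06 with separate scaling), while Nanog, Pou5f1 and Esrrb did not pass the test, with differences of 0.17, 0.14 and 0.09. A region was again assigned by any annotated start: of 170 list genes matched to RefSeq, 139 had that start within 1 kb of the region, and it lay further off for Esrrb (107.96 kb), Nr5a2 (5.32), Otx2 (3.91), Dnmt3l (5.7) and Plagl1 (25.91), among others. As a check of the labelled cell type, the 10 embryonic stem cell marker promoters summed to 1220 to 1350 CPM in D2 and 1190 to 1270 in B6-13D2.

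Away from promoters, the naive genes differed from each other. Of 567 regions within 100 kb, 162 (28.6%) were called, 60 higher and 102 lower, against 23.9% of the 136897 distal regions around all genes, 14025 higher and 18644 lower. Nr5a2 had 38 of these regions, with 0 higher, 21 lower and a median of -1.03. Without Nr5a2, 57.4% of the calls were lower, beside 57.1% around all genes. Lifr, the LIF receptor gene, had 11 lower of 34, Klf5 had 15 lower and 5 higher of 52, and Tfcp2l1 had 8 lower and 1 higher of 21. Prdm14, Tbx3 and Socs3 leaned the other way, with 12 of 33, 11 of 41 and 6 of 15 higher. Esrrb had 4 higher and 0 lower of 32.

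**Figure D4:**
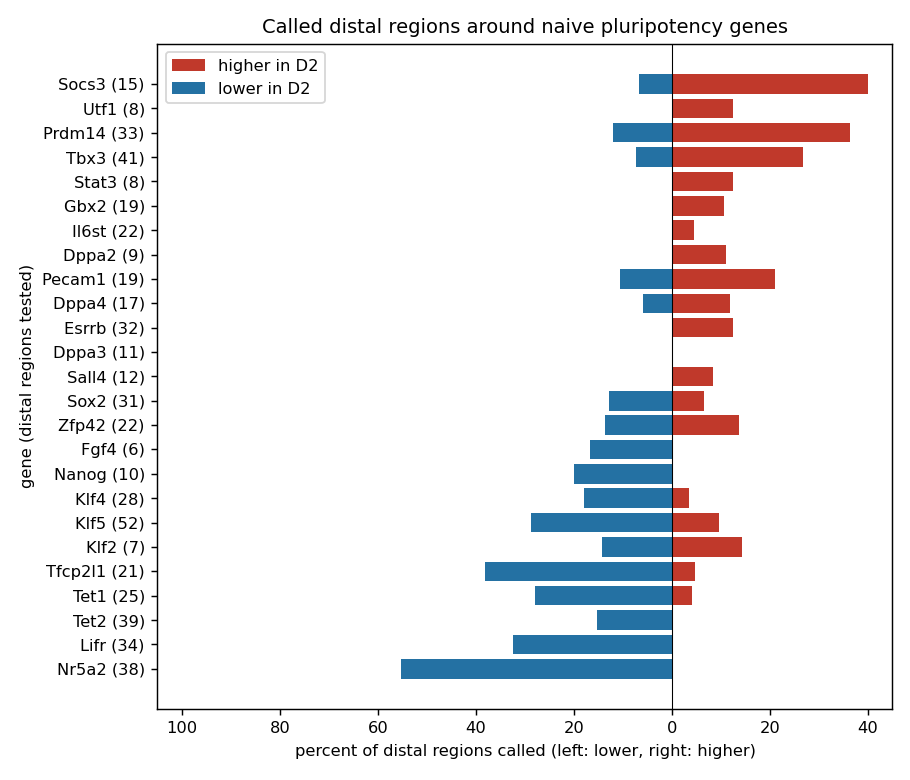
Percent of distal regions within 100 kb of each naive pluripotency gene that were called lower (left) or higher (right) in D2, for genes with at least 5 such regions, ordered by median log2 difference, with the number of regions tested in parentheses. Nr5a2 has 21 of 38 regions lower and none higher, and Socs3, Prdm14 and Tbx3 have most of their called regions higher.

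Single distal regions of these genes differed strongly. The region 14.6 kb upstream of Pou5f1, chr17:35489279-35491383, measured 1.29, 1.47 and 2.17 CPM in D2 and 49.3, 46.45 and 49.49 in B6-13D2, a log2 difference of -4.87 ± 0.2 (SE, adjusted p = 9.21e-24), while the Pou5f1 promoter differed by 0.14. D2-13B6 was also low there, at a mean of 1.29 CPM, and B6 was at 31. In the separate lines, a wider region of 9684 bp that holds it and 4 other regions tested here differed by -0.61. A region 6.31 kb from Tfcp2l1 differed by -2.08, with 8.25, 7.46 and 7.31 CPM in D2 against 31.82, 32.04 and 33.68. In the separate lines it lies in 1 region of 42365 bp that also covers the promoter, so it has no value of its own there. A region 90.5 kb from Nr5a2 differed by -1.81 and one in an intron of Lifr by -2.2.

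Higher in D2 were a region 88 kb from Klf5, at 18.63, 13.68 and 15.2 CPM against 4.2, 3.86 and 4.7 (log2 difference 1.88), and one 23.7 kb from Esrrb, at 11.89, 11.98 and 10.97 against 3.44, 3.03 and 3.79 (1.78). A region 45.2 kb from Klf4 differed by 1.55 and one 9.34 kb from Tbx3 by 1.3. The libraries did not overlap at these regions, and all 8 distal regions kept their call under every alternative.

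Genes of the formative and primed states had 9 of 15 tested promoters higher in D2, 1 lower and a median of 0.71, beside 46.1% higher and 0.44 over all promoters. With GC-decile scaling the counts were 4 and 3, with promoters scaled separately 3 and 3, and without B6-13D2 replicate 2 they were 4 and 1. Cdh2, N-cadherin, stood at 22.7, 18.09 and 20.68 CPM in D2 against 5.54, 5.42 and 5.96, a log2 difference of 1.84 ± 0.17 (SE). Lef1, a Wnt effector, differed by 1.72, at 13.82, 13.56 and 13.83 against 3.92, 4.13 and 4.42, and Dnmt3l, a cofactor of DNA methylation, by 1.15. Otx2, a transcription factor of the formative state, was lower, by -0.6, a call lost with DESeq2 (adjusted p = 0.0579) and without D2 replicate 2 (adjusted p = 0.117).

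Targets of MEK-ERK and Wnt signaling, the pathways that the culture inhibitors act on, had 14 of 21 promoters higher, 0 lower and a median of 0.53, beside 46.1% higher over all promoters. With GC-decile scaling 2 were higher and 1 lower, with separate scaling 2 and 2, and without B6-13D2 replicate 2 they were 4 and 0. The ERK feedback inhibitors Spry1 and Spry4 differed by 1.32 and 0.99, and Spry1 stood at 11.89, 8.82 and 9.94 CPM in D2 against 4.01, 3.67 and 4.52. Housekeeping genes had 13 of 18 promoters higher, 0 lower and a median of 0.4. With separate scaling 0 were called in either direction, and without B6-13D2 replicate 2 only 1 was called, higher.

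Enzymes and readers of H3K27ac itself had 15 of 26 promoters higher and 1 lower, with a median of 0.43 that is close to the 0.44 over all promoters. The counts were 3 and 1 with GC-decile scaling, 3 and 3 with separate scaling, and 4 and 1 without B6-13D2 replicate 2. The largest difference was in Kat2b, which encodes the acetyltransferase PCAF. Its region, chr17:53580654-53584754, measured 143.83, 127.74 and 140.67 CPM in D2 against 25.99, 24.78 and 24.92, a log2 difference of 2.43 ± 0.13 (SE, adjusted p = 1.46e-19). That region lies 13.68 kb from the RefSeq start of Kat2b. Chd4, a subunit of the NuRD deacetylase complex, differed by 0.89, which was not called with GC-decile scaling (adjusted p = 0.0992). Hdac1 was the single lower gene, by -0.35, and its call was lost with DESeq2 (adjusted p = 0.0539).

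Heterochromatin genes had 12 of 25 promoters higher and 0 lower, with a median of 0.36, near the share over all promoters (46.1% higher) and below their median. The counts were 3 and 0 with GC-decile scaling, 2 and 3 with separate scaling, and 2 and 0 without B6-13D2 replicate 2, but 19 and 0 without TMM factors or with a mean of at least 20 counts, and 21 and 1 with libraries kept separate. Ehmt1, a H3K9 methyltransferase gene, stood at 31.7, 28.6 and 31.77 CPM in D2 against 14.52, 12.85 and 14.63, a log2 difference of 1.13, and Suv39h2, another, differed by 1.01. Imprinted genes had 12 of 22 promoters higher and 3 lower, or 11 and 2 of 20 regions once the regions shared by Peg3 and Usp29 and by Peg10 and Sgce were each counted once, with a median of 0.63, beside 46.1% higher and 4% lower over all promoters. Counted by gene, they were 6 and 3 with GC-decile scaling, 3 and 4 with separate scaling, and 4 and 1 without B6-13D2 replicate 2. The shared Peg3 and Usp29 promoter region differed by 0.75, at 80.32, 70.54 and 82.5 CPM against 45.48, 45.71 and 44.25, and Plagl1 by -0.88. Germline genes had 7 of 18 higher and 1 lower, a smaller share higher than over all promoters, with 3 and 3 under either added scaling and 3 and 1 without B6-13D2 replicate 2.

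Fibroblast markers, which feeder cells would bring, had 10 of 12 promoters tested, 6 higher and 0 lower in D2, and summed to 52.1 to 60.3 CPM in D2 against 34.4 to 38.6 in B6-13D2. None of these 6 was called with GC-decile scaling, and 2 were higher without B6-13D2 replicate 2. Their part in the results above was not tested. Primitive endoderm markers summed to 112 to 124 against 105 to 114 CPM, and trophoblast markers to 45 to 52 against 33.4 to 39.7. Markers of the 2-cell-like state, some of them multicopy, summed to 41.8 to 43 CPM in D2 against 18.6 to 25.3 in B6-13D2. Most of that sum was the multicopy gene Duxf3, at a mean of 34 against 16 CPM. Of their 5 tested promoters 2 were higher and 0 lower, with a median of 0.8, and 4 were higher with GC-decile scaling but 1 with separate scaling. Markers of mesoderm, ectoderm and neural cells had 6 of 12 promoters higher and 2 lower, with a median of 0.75. The counts were 1 and 2 with GC-decile scaling, with separate scaling and with DESeq2, 2 and 2 without D2 replicate 2, and 3 and 1 without B6-13D2 replicate 2. The neural gene Sox1 was higher, by 1.56, while Olig2 was lower, at 1.93, 2.15 and 2.17 CPM in D2 against 18.82, 19.28 and 18.24, a log2 difference of -3.17 ± 0.2 (SE).

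The strain difference was small at 65 to 67 Mb of chromosome 13, within the segment where both lines carry D2 alleles. Between 58 and 70 Mb, 228 of all 1309 tested regions (17.4%) were called, against 22.8% on that chromosome outside. The median absolute log2 difference was 0.32 inside and 0.45 outside. Regions that differed between D2 and B6 in the separate lines (called, with an absolute log2 difference of at least 1) were signed so that a positive value repeats the strain direction. On the other autosomes, 9823 such regions had a median of 1.17 here, and 62.3% were called in the strain direction. On chromosome 13 outside 58 to 70 Mb, the median was 1.12 over 450 regions and 61.3% were called. Between 58 and 70 Mb the median was -0.15 over 317 regions and 4.73% were called. That value rests on the 249 regions between 65 and 67 Mb: the flanks had a median of 0.17 over 47 regions at 58 to 65 Mb, with 14.9% called, and of 0.19 over 21 regions at 67 to 70 Mb, with 14.3% called.

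In the middle of the segment the share called was lowest. Between 65 and 67 Mb, 249 strain-different regions had a median of -0.17 here and of 4.6 in D2 minus B6, which shares the D2 libraries and is given only beside it. In the separate lines their median absolute difference was 1.72. On the other autosomes these values were 1.37 in D2 minus B6 and 1.33 in the separate lines. Only 5 of the 249 (2.01%) were called in the strain direction. The bounds of these stretches were chosen after their values had been seen, and the line D2 5-5 is also 1 of the 3 D2 lines in the separate series, though no library is shared.

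Over all 344 tested regions between 65 and 67 Mb, 47 (13.7%) were called, 3 higher and 44 lower, with a median of -0.18. Of these, 7 had an absolute log2 difference of at least 1, or 2.03%, against 13% of regions on chromosome 13 outside 58 to 70 Mb. The number called followed the settings, from 10 without D2 replicate 2 to 217 with libraries kept separate and a replicate block, while the number with a difference of at least 1 was 6 to 9 and the median -0.28 to -0.11.

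**Figure D5:**
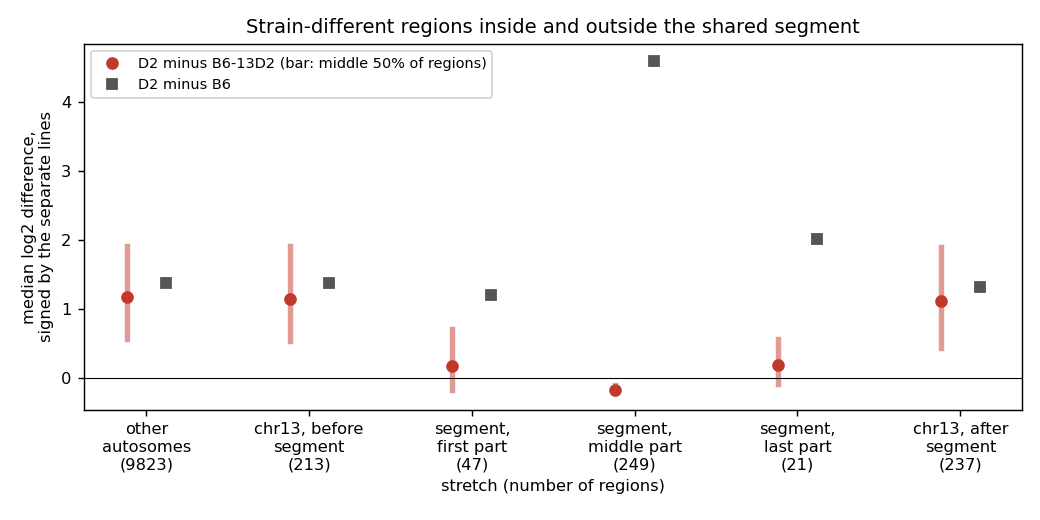
Median log2 difference of strain-different regions, signed by the separate lines (vertical axis), for the other autosomes and for parts of chromosome 13 (horizontal axis, with the number of regions), with bars for the middle 50% of regions in D2 minus B6-13D2. D2 minus B6-13D2 is at 1.17 on the other autosomes and -0.17 in the middle part of the segment, where D2 minus B6 is at 4.6. The separate lines, not drawn, had a median absolute difference of 1.72 in that part.

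Some whole stretches of other chromosomes moved together. In windows of 500 kb with at least 20 tested regions, the highest medians lay on chromosome 12 between 19000001 and 24000000, where 36 of 38 regions were higher in the window starting at 23000001 (median 3.21) and 48 of 51 in the one starting at 19000001 (2.86). A window on chromosome 14 starting at 53000001 had 36 of 41 higher (2.76). The reciprocal contrast had 2.81, 2.72 and 2.96 in these windows, whereas the separate lines had 0.44, -0.03 and -0.5. The lowest median, -2.31, lay on chromosome 9 from 124000001, where 34 of 40 regions were lower and none higher. The next lowest were a window on chromosome 19 from 61000001 (-1.42) and one on chromosome 3 from 15000001 (-1.34).

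The same background comparison can be made with the segment from B6, as D2-13B6 minus B6, with no library in common. That contrast called 58220 of the same 192158 regions (30.3%). Of the regions called here, 58.2% were called there in the same direction, and these were 50.2% of the calls there. Of the 30340 regions called in both, 29242 (96.4%) had the same direction. Across all regions the log2 differences had a Pearson r of 0.62 and a Spearman rho of 0.52, which is a description across regions that share region list and fit, not across replicates. Among the 28439 regions with a difference of at least 1 here, 62.5% were called alike there and 0.8% in the opposite direction.

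The difference between the background contrasts was tested as an interaction, which called 10176 regions (5.3%), 2630 with a positive and 7546 with a negative value. One of the D2-13B6 libraries, replicate 1, stood apart from the others of its line, with a chi-square per degree of freedom of 2.79 to 2.81 against 0.905 between replicates 2 and 3. Without it, the interaction called 22495 regions. Fibroblast markers summed to 28.1 CPM in that library against 54.6 and 55.6 in the others of its line, and their part in the count was not tested. D2-13B6 libraries also held 9.15% to 9.47% of their counts on chromosome 11, against 7.14% to 7.64% in the other lines.

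The separate lines gave a comparison with other libraries and another antibody. Of 96291 tested regions of their own list, 47477 (49.3%) were called in D2 minus B6. Through overlaps of at least 1 bp, 100149 regions tested here had a tested counterpart, and of the 27081 called in both, 25272 (93.3%) had the same direction. Among those with a difference of at least 1 here, 76.8% were called alike and 2.8% in the opposite direction. The regions described above were chosen for their size here, and most counterparts were wider, such as 10968 bp against 2872 at Pdrg1, so sizes in the 2 sets are not compared. The values there were 3.18 at Gm43122, 1.76 at Pdrg1, -2.04 at Nod1, -4.94 at Trim12a and 1.65 at the distal Klf4 region. Among the largest promoters, Fcho1, at 0.24 over 1421 bp, and Nrros, at -0.11 over 2594 bp, did not pass the test there. Neither did the chromosome 12 region at 24036554, at 0.42 over 1507 bp, and the Zfp994 region had no tested counterpart. Of the list promoters named above, some did not pass there, such as Socs3 (0.12), Gbx2 (-0.01) and Spry1 (0.22). Others did, such as Cdh2 (1) and Kat2b (0.2).

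H3K9me3, the heterochromatin mark, was measured in 2 libraries each of D2 and B6-13D2 over the same regions, at a lower depth of 1573625 to 2118055 counts. Of 86874 regions tested, 7144 (8.22%) were called, 2482 higher and 4662 lower in D2. With 1 library left out 3515 to 4551 were called, and with DESeq2 2206, so the counts over both marks below depend on these settings too. Of 78531 regions tested for both marks, 27248 were called for H3K27ac and 6606 for H3K9me3. Across them the log2 differences had a Pearson r of 0.15 and a Spearman rho of 0.08. Of the 3486 regions called for both marks, 63.1% had the same direction, 930 higher and 1270 lower in both. The others were 842 higher for H3K27ac and lower for H3K9me3 and 444 the reverse. Where the H3K27ac difference was at least 2, the share with the same direction was 79.6% of 1135 regions, and where it was under 1 the share was 54.3% of 1174. The Skint4 intron and the Mid1 promoter fell in both marks, with H3K9me3 differences of -4.23 and -3.56. The promoter of 1700093K21Rik went opposite ways, with an H3K9me3 difference of -2.98 beside 3.68 for H3K27ac, and the chromosome 12 regions at 19087235 and 24036554 rose in both, by 3.72 and 3.07 for H3K9me3.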

How the data were processed

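ChIP-seq read counts per region, with duplicates removed per the file headers, were used as deposited. The authors' processing notes name mm10, Trimmomatic 0.39, HISAT2 2.2.1, MACS 1.4.2, bedtools 2.9.2 and edgeR, with no roles; how regions were made is not given in the sources used here. Totals were 8735674 to 10008632 counts in D2 and 10958210 to 11543469 in B6-13D2. No input control was used here, and 2 columns that matched no sample were left out.

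Library pairs with a chi-square per degree of freedom under 1 over regions with at least 40 counts (1 and 3 of D2, 0.954; 1 and 3 of B6-13D2, 0.906) varied less than counting error and were summed as 1 sample, leaving n = 2 per line. All 4 lines entered 1 edgeR 4.0.16 fit (R 4.3.3, TMM, filterByExpr, quasi-likelihood F-test, Benjamini-Hochberg over all tested regions). P-values measure the spread between libraries of a line, which is technical. Data were also simulated for this contrast over 192158 regions. For each size, 100 regions of at least 1 CPM were changed, and all others were equal between lines. There, 47% of changes of 1 and 83% of changes of 2 (log2) were called, with 6 false calls. In the real contrast 26.1% of regions were called and promoters shifted as a set, so these values may not hold for it. DESeq2 1.42.0 was an alternative. Annotation was GENCODE M21 on GRCm38; starts were read as 0-based.

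Named regions were the 6 with the largest called difference per direction at 5 CPM or more, not on X or Y and 1 per 100 kb, 8 promoters per direction, and up to 3 genes per list and direction by p-value; others were named after their values were seen. Members and lists were chosen with earlier results of these data known.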

Additional observations from a re-analysis of the deposited data

Results flagged for a closer look

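These results differed between the background contrasts, D2 minus B6-13D2 (segment from D2) and D2-13B6 minus B6 (segment from B6), by the interaction term of the edgeR fit. The interaction was 5.2 at Stab2 (adjusted p = 3.09e-05), where D2 stood at a mean of 7.47 CPM and D2-13B6 at 0.212. It was 1.21 at the distal Esrrb region (0.00324) and -1.09 at the distal Nr5a2 region (0.00212), and without D2-13B6 replicate 1 these were 5.54, 1.17 and -1.09. Leaving out that library leaves D2-13B6 as 1 summed sample, which is assumed to vary like the other lines, here and in the values that follow.

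At list promoters it was 1.74 at Duxf3 (adjusted p = 1.54e-06), a multicopy activator of the 2-cell program, and 2.1 at Usp17la (0.00442), also multicopy, whose call in D2 minus B6-13D2 was lost with DESeq2 (adjusted p = 0.282). It was -1.21 at the region shared by the imprinted genes Peg10 and Sgce (0.00128), -0.99 at the neural gene Pax6 (0.03) and -1.64 at Nrros (0.046). Without D2-13B6 replicate 1 these were 2.03, 2.2, -1.34, -0.86 and -1.93, all past the threshold under that assumption. Nod1 (-0.74, adjusted p = 0.0476), Otx2 (-0.94, 0.0322) and the Nr5a2 promoter (-0.67, 0.0241) were no longer called without it (0.126, 0.0813 and 0.0903).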

How the results depend on the processing

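All 12 largest regions, 16 largest promoters and 8 distal regions of naive genes kept direction and call under every alternative; 24 of 51 list promoters did. The Sox2 promoter, higher by 0.35, turned to -0.17 with GC-decile scaling and -0.06 with promoters scaled separately. DESeq2 called 28028 regions (13305 higher, 14723 lower, 17775 of at least 1, 4852 promoter regions higher), 31946 in D2-13B6 minus B6, 5414 in the interaction and 2206 for H3K9me3. Promoter regions higher in D2 fell to 2843 with GC-decile scaling and 2248 with separate scaling, where 2819 were lower; with the D2 and B6-13D2 libraries alone, 1597 were lower. The H3K9me3 count was 2816 with a mean of at least 20 counts.

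With 1 library left out, 35694 to 47152 regions were called (13885 to 23124 higher, 17296 to 25626 lower, 25600 to 26911 of at least 1), 3282 to 7475 promoter regions higher and 647 to 1218 lower, 53765 to 57599 in D2-13B6 minus B6, 4401 to 10669 in the interaction and 3515 to 4551 for H3K9me3. These ranges cover only fits that leave out 1 library of D2 or of B6-13D2. The interaction count without D2-13B6 replicate 1, given below, lies above its range, as does the count for D2-13B6 minus B6. Leaving out replicate 2 of D2 or of B6-13D2 leaves that line 1 summed sample, assumed to vary like the other lines. Without B6-13D2 replicate 2, 38.9% of calls were higher in D2, and 13885 regions and 3282 promoter regions were higher. Without D2 replicate 2, 647 promoter regions were lower and the interaction called 4401.

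Replicate numbers did not pair the samples: same-numbered deviations of B6-13D2 and D2 correlated at 0.02 to 0.093. With libraries kept separate, the replicate block called 59490 regions, 20667 in the interaction and 7328 for H3K9me3, and without the block the interaction called 21132; without D2-13B6 replicate 1 it called 22495, and 30663 regions and 8401 promoter regions were higher in D2, over 226901 regions tested. In the lowest quintile of levels (median 0.54 CPM), 6.24% of regions were called, against 55% in the highest. The part of depth in this difference was not tested.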
